A study of Homo sapiens with 12 samples.

Results

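Genes with trimethylated histone H3 lysine 4 (H3K4me3) at an end were sorted by how much of their length lay under trimethylated lysine 36 (H3K36me3). They were chosen from the called intervals of both marks: protein-coding genes no shorter than 5 kb that had H3K4me3 within 1 kb of either annotated end. Of 19974 protein-coding genes on chromosomes 1 to 22 and X, 16814 were at least 5 kb long and 9275 of these (55.2%) had H3K4me3 at an end. Of the 9275, 1356 (14.6%, 95% Wilson interval 13.9 to 15.4) had 0% of their span under H3K36me3 and are called uncovered genes here. A further 4580 (49.4%, 48.4 to 50.4) had at least 50% under it and are called covered genes. The other 3339 (36%) lay between and are called partly covered.

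All libraries came from KBM-7, a human line derived from chronic myeloid leukaemia that carries the BCR-ABL1 fusion and keeps most chromosomes in a single copy. The labels name no treatment, and the cells were grown in IMDM medium with 10% fetal calf serum. Chromatin was crosslinked, sheared and immunoprecipitated once for each of 9 marks, and 3 inputs were sequenced. With 1 library for each mark and 1 cell line, differences could not be set against the spread of replicates and no test was made. Intervals around shares and medians cover counting error over genes only, and neighbouring genes are not independent. The values are called intervals without read counts, which leaves the sequencing depth unknown. The intervals labelled H3K36me3 and H4K16ac were the same 45695 intervals, and which of the 2 antibodies produced them cannot be told apart from the intervals alone. They are read here as H3K36me3 because they avoided starts and rose into gene bodies, and this choice was not tested.

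H3K4me3 is laid down around the starts of genes by the SET1 and MLL methyltransferases and marks promoters that are active or poised. H3K36me3 is written by SETD2, which travels with elongating RNA polymerase II, so it builds up along the bodies of transcribed genes. H3K79me2, written by DOT1L, lies over the first part of transcribed genes, and H3K27me3, written by Polycomb repressive complex 2, lies over silent genes and, together with H3K4me3, over the bivalent promoters of developmental genes.

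The promoters of 6 genes are shown because they stand for the kinds of gene described below. Each is the 250 bases before the annotated start, from RefSeq, build GRCh38.p14, written 5′ to 3′ on the strand of the gene. Capitals mark matches, on either strand, to any of 7 motifs. These were the GC box (GGGCGG), the core bound by factors of the ETS family (CCGGAAG), the CCAAT box by the letters of its name, and the TATA box of tissue-restricted promoters (TATAAA). The others were the E-box of basic helix-loop-helix factors (CACGTG), the cyclic AMP response element (TGACGTCA) and a site of the E2F family (TTTCCCGC). CDKN1B, which encodes the cell cycle inhibitor p27, at chr12:12717118-12717367 (plus strand), was the uncovered gene with the most H3K4me3. NR4A3, an orphan nuclear receptor of the immediate early class, at chr9:99821635-99821884 (plus strand), was uncovered. H3K27me3 covered 71.97% of its span but none of the window shown. SMYD2, a lysine methyltransferase gene, at chr1:214280909-214281158 (plus strand), was uncovered and had neither H3K79me2 nor H3K27me3 in its span. POLQ, DNA polymerase theta, at chr3:121545989-121546238 (minus strand), KIF15, a mitotic kinesin, at chr3:44761544-44761793 (plus strand), and POLA1, the catalytic subunit of DNA polymerase alpha, at chrX:24693668-24693917 (plus strand), were covered genes of over 100 kb. The CDKN1B window overlapped the gene GPR19, the KIF15 window KIAA1143, and the SMYD2 window the locus LOC124904509. No other gene of the annotation overlapped the windows of NR4A3, POLQ and POLA1.
CDKN1B: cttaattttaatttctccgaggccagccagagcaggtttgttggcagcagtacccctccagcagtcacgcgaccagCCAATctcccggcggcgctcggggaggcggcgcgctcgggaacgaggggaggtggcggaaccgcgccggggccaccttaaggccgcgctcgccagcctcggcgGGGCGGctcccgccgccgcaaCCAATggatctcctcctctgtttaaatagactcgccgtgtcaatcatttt
NR4A3: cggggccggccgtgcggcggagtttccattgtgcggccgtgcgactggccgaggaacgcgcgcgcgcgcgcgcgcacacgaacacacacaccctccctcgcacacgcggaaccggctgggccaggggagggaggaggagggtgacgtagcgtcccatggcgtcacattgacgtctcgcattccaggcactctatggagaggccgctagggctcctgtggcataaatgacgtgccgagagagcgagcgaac
SMYD2: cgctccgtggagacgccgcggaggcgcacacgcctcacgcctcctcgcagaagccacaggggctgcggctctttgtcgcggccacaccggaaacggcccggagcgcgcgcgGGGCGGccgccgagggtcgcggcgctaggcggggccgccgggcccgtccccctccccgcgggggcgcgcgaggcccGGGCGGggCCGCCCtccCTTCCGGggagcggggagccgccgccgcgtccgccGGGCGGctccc
POLQ: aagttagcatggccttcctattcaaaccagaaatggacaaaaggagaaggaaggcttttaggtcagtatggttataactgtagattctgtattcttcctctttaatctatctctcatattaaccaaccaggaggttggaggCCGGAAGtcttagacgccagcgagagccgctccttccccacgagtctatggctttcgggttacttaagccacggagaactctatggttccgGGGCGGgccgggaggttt
KIF15: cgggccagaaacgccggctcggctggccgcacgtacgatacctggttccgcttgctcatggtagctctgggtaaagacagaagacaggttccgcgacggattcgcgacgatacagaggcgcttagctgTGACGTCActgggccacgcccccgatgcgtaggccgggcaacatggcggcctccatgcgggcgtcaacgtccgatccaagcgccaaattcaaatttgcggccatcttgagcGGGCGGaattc
POLA1: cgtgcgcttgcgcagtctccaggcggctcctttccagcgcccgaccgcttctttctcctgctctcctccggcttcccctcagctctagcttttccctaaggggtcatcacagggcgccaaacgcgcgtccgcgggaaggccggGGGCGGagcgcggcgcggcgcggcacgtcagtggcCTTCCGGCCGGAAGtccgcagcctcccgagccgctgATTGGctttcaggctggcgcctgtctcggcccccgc
H3K4me3 covered 100% of the CDKN1B, SMYD2, POLQ and KIF15 windows, 66.8% of that of POLA1 and 40% of that of NR4A3. H3K36me3 and H3K27me3 each covered 0% of all 6. H3K9ac covered 0% of the NR4A3 window and from 66.8% (POLA1) to 100% of the others. The windows held 27 (CDKN1B), 33 (NR4A3), 46 (SMYD2), 10 (POLQ), 29 (KIF15) and 31 (POLA1) CpG dinucleotides.

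Apart from these examples, the promoters of uncovered and covered genes were much alike in composition, and both differed from promoters without H3K4me3. A promoter sequence placed exactly at the annotated start was at hand for 11524 genes, of which 841 uncovered, 2485 partly covered and 3512 covered genes had H3K4me3 at that start. The median number of CpG in 250 bases was 23 (23 to 24) in uncovered, 23 (23 to 24) in partly covered and 21 (21 to 22) in covered genes, against 7 (7 to 8) in the 4686 genes without H3K4me3 at the start. Median G+C content was 68% (67.2 to 68.8) in uncovered and 64% (63.6 to 64.4) in covered genes. Uncovered genes with H3K4me3 thus had promoters as rich in CpG as the others.

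The ETS core was the motif whose share differed most between the classes among the 7 searched. It was found in 12.01% (9.98 to 14.4) of the promoters of uncovered genes and 23.7% (22.4 to 25.2) of those of covered genes, against 12.8% of all promoters and 4.23% of those without H3K4me3. The order was the same within each of 3 classes of G+C content: 6.63% against 24.4% below 60%, 16.6% against 26.4% from 60 to 70%, and 11.0% against 18.9% at 70% or more. The POLA1 promoter held 2 matches, and those of POLQ and SMYD2 1 each.

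The GC box, the letters bound by SP1 and related factors, was in 75.5% (72.5 to 78.3) of the promoters of uncovered and 69.7% (68.1 to 71.2) of those of covered genes, against 58.8% of all. Within the G+C classes these shares lay close together, for example at 73.6% and 74.4% from 60 to 70%. The CCAAT box was in 33.2% (30.1 to 36.4) and 39.1% (37.5 to 40.7), against 34.9% of all. The remaining motifs were rare in both classes. The TATA box was in 3.69% and 4.70% of promoters, against 7.46% of all and 12.2% of those without H3K4me3. The E-box was in 8.56% and 9.79% (7.97% of all), the cyclic AMP response element in 2.38% and 3.73% (2.41% of all) and the E2F site in 2.26% and 3.10% (2.04% of all). A match is a run of letters, not evidence that a factor binds there.

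H3K4me3 and H3K36me3 went together across genes, but neither implied the other. Of all 16814 genes of at least 5 kb, 44.5% were at 0% and 29.2% at 50% or more. Of the 7539 genes without H3K4me3 at an end, 6121 (81.2%, 80.3 to 82.1) were at 0% and 324 (4.30%, 3.86 to 4.78) at 50% or more. The classes have sharp edges on a continuous scale. The lowest values above 0% were 0.0515% in CD72, a B cell surface receptor gene, and 0.143% in SATL1. On the sides of the upper threshold stood EMP3 at 49.98% and VAPA at 49.99%, then FBXL13 at 50.003% and SGTA at 50.02%. When H3K36me3 was restricted to regions at or above the median width of 3500 bp, 2291 genes were uncovered instead of 1356, since the genes that joined them had narrower regions only. With the upper threshold at 75% of the span, 2444 genes were covered instead of 4580.

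Along the genes, the H3K36me3 intervals avoided the start and rose into the body. In the 2489 covered genes that were 20 kb or longer and had H3K4me3 at a known start, mean H3K36me3 cover was 0.0715% in the first 500 bp, 5.45% at 1.25 kb, 64.7% at 5.25 kb and 79.2% at 19.75 kb. H3K79me2 in the same genes stood highest just inside the start, at 82.3% at 1.25 kb, and fell to 31.8% at 10.25 kb and 16.3% at 19.75 kb. H3K4me3 covered 89.3% of the first 500 bp and 44.8% of the bin at 1.25 kb. In the 578 uncovered genes measured the same way, H3K4me3 covered 60.95% of the first 500 bp and 11.3% at 1.25 kb, and H3K79me2 covered 4.47% and 6.78%. H3K27me3 took the opposite course, with 16.7% of the first 500 bp and 26.1% at 19.75 kb in uncovered genes against 0.476% and 2.38% in covered genes.

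**Figure D1:**
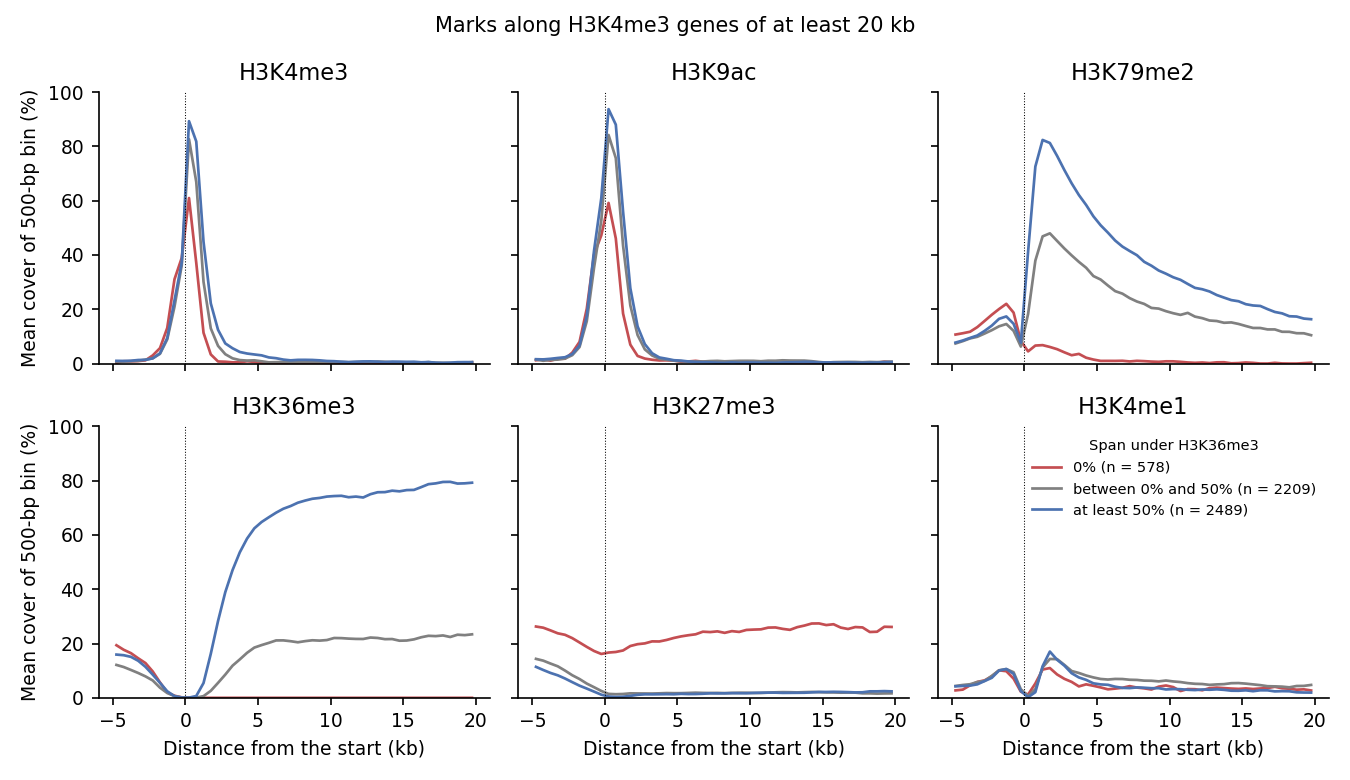
Mean share of each 500-bp bin covered by 6 marks (y axis, percent) against distance from the annotated start (x axis, kb; positive values run into the gene), for H3K4me3 genes of at least 20 kb that have a known strand and H3K4me3 at the start. Lines are the 578 uncovered, 2209 partly covered and 2489 covered genes; H3K79me2 at 1.25 kb reached 6.78% in uncovered and 82.3% in covered genes, and H3K27me3 was higher in uncovered genes in the whole plotted range.

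Upstream of the start the order depended on the mark and the distance. H3K79me2 was higher in uncovered genes in each plotted bin before the start, at 21.99% against 17.3% at 1.25 kb. H3K4me3 was higher in uncovered genes at 1.25 kb before the start (13.1% against 9.38%) and lower at 4.75 kb (0.306% against 0.993%). H3K9ac was higher in them at 1.25 kb (20.2% against 17.5%) and lower at 0.25 kb (47.2% against 60.9%), and H3K27ac was lower at 0.75 kb (0.941% against 3.61%). At 4.75 kb before the start, H3K36me3 itself covered 19.4% in uncovered and 15.9% in covered genes. How often another gene lay close by is given further on.

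Uncovered genes were more frequent among the shortest and the longest H3K4me3 genes than among those in between. Their share was 25.6% (23.2 to 28.2) at 5 to 10 kb, 16.6% at 10 to 20 kb, 11.3% at 20 to 50 kb, 10.5% (9.17 to 12.1) at 50 to 100 kb, 11.4% at 100 to 200 kb and 21.6% (18.6 to 25.1) over 200 kb. The intervals of both outer classes lay above those of the 4 classes in between. The share of covered genes rose from 48.9% at 5 to 10 kb to 59.8% (58.0 to 61.6) at 20 to 50 kb and dropped to 8.24% (6.32 to 10.7) over 200 kb, where 70.1% of genes were partly covered. Length enters the rule through the share of the span, so these shares are descriptions.

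**Figure D2:**
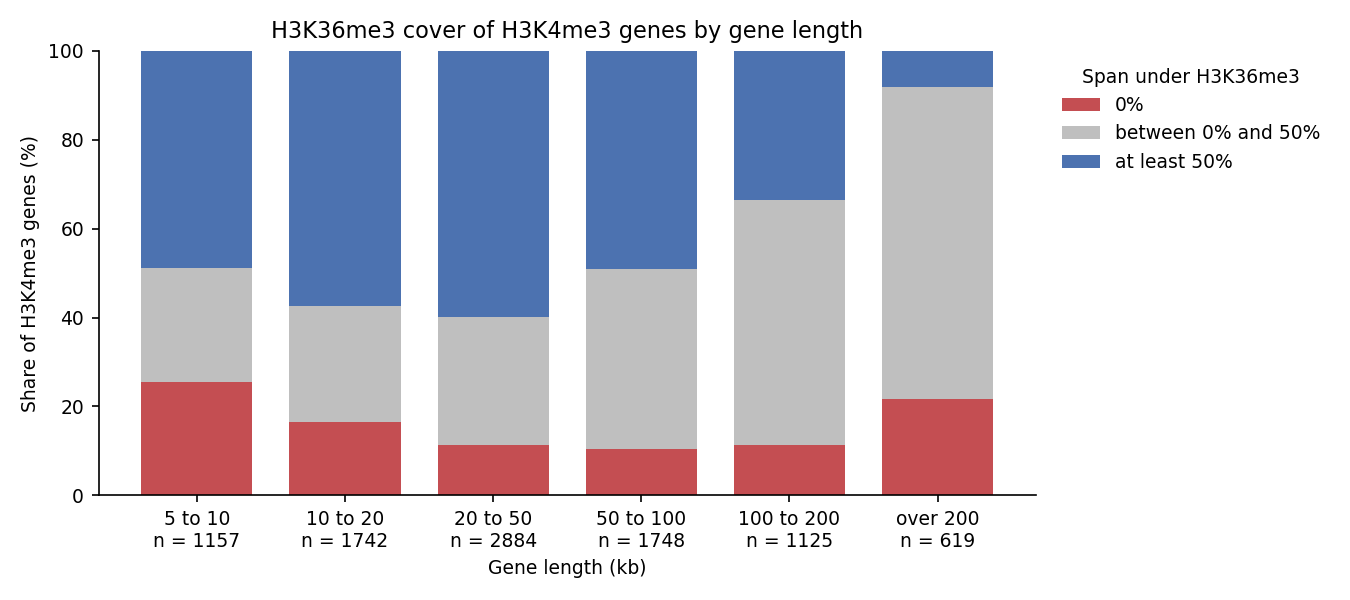
Share of H3K4me3 genes (y axis, percent) that were uncovered, partly covered or covered by H3K36me3, in 6 classes of gene length (x axis, kb; n is the number of genes). The uncovered share is 25.6% at 5 to 10 kb, 10.5% at 50 to 100 kb and 21.6% over 200 kb, and the covered share is 8.24% over 200 kb.

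The median length was 25451.5 bp (23470 to 27645) in uncovered, 53843 bp (51500 to 57631) in partly covered and 29689 bp (28899 to 30588) in covered genes, against 34831 bp over all 9275. The log2 ratio of the medians, uncovered over covered, was -0.22 (-0.38 to -0.06). Its sign depended on the minimum length: the ratio was 0.12 (-0.07 to 0.33) among genes of at least 10 kb, an interval that includes 0, and 0.39 (0.29 to 0.62) among those of at least 20 kb. It was 0.32 (0.14 to 0.52) when genes with under 5% of their span covered were counted as uncovered. A single median describes the uncovered genes poorly, since short and long genes were both in excess.

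The uncovered genes fell into kinds by the other marks in their spans. Of the 1356, 624 (46.0%, 43.4 to 48.7) had neither H3K79me2 nor H3K27me3 in the span, 429 (31.6%, 29.2 to 34.2) had H3K27me3 only, 253 (18.7%, 16.7 to 20.8) had H3K79me2 only and 50 had both. Of the covered genes, 3977 (86.8%, 85.8 to 87.8) had H3K79me2 only, 301 neither, 254 both and 48 H3K27me3 only. The kinds differed in length. Uncovered genes with H3K79me2 only had a median of 13634 bp, those with neither 17243.5 bp and those with H3K27me3 only 82838 bp. A long gene has more room for a region of any mark, so short and long genes were also compared apart.

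They also differed at the gene ends. The median width of the widest H3K4me3 region was 1200 bp in uncovered genes with H3K79me2 only, 750 bp in those with neither and 600 bp in those with H3K27me3 only. H3K9ac, an acetylation of active promoters, was at an end of 99.2%, 95.03% and 78.3% of them, and H3K27ac, a mark of active promoters and enhancers, of 18.6%, 5.61% and 0.932%. H3K27ac had few intervals in all, as given further on. In the 3977 covered genes with H3K79me2 only, the width was 1350 bp, H3K9ac 99.8% and H3K27ac 14.7%. On these 3 measures the uncovered genes with H3K79me2 only stood nearer to the covered genes than those with H3K27me3 only did. The order of the 3 kinds in H3K9ac and H3K27ac was the same below and above 20 kb. Below 20 kb, H3K27ac was at an end of 38 of 165 genes with H3K79me2 only (23.03%, 17.3 to 30.02), 22 of 346 with neither (6.36%, 4.24 to 9.44) and 1 of 64 with H3K27me3 only (1.56%, 0.276 to 8.33), so the last 2 intervals overlapped. At 20 kb or more it was at 9 of 88 (10.2%, 5.47 to 18.3), 13 of 278 (4.68%, 2.75 to 7.84) and 3 of 365 (0.822%, 0.28 to 2.39). The median width was 1200 bp, 750 bp and 600 bp below 20 kb, and 1200 bp, 750 bp and 750 bp above.

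The 10 uncovered genes with the highest share of span under H3K79me2 were short, from 5002 to 6851 bp. In the profiles above, H3K79me2 stood highest just inside the start, so a high share of span is easier to reach in a short gene. A short gene also has less span beyond the first kilobases, where H3K36me3 cover was highest. The part that length had in this combination was not tested. CDKN1B (chromosome 12, 5002 bp) had H3K4me3 on 9750 bp, H3K9ac on 12300 bp and H3K27ac on 3750 bp of the sequence within 5 kb of its ends. H3K79me2 covered 100% of its span and H3K27me3 0%. CDKN2C, another cyclin-dependent kinase inhibitor gene (13890 bp), had H3K4me3 on 8616 bp, H3K9ac on 11950 bp, H3K27ac on 2016 bp and 64.7% of its span under H3K79me2. HOXA13, a homeobox gene (5728 bp), had 6000 bp of H3K4me3, 2100 bp of H3K27ac and 97.5% under H3K79me2. These 3 genes had wide H3K4me3, H3K9ac, H3K27ac and H3K79me2 at 0% H3K36me3. MID1IP1 (5074 bp, 98.2%), EVI2A (5213 bp, 97.7%) and ATP6V0C, a subunit gene of the vacuolar proton pump (6493 bp, 94.7%), had similar shares of span under H3K79me2. Of the uncovered genes, 27 (1.99%) had at least 50% of the span under H3K79me2, against 492 (10.7%) of the covered genes.

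Covered genes with the most H3K4me3 included CD69, an early activation antigen of leukocytes, with 9600 bp of H3K4me3 within 5 kb of the ends, 13201 bp of H3K9ac, 100% of the span under H3K79me2 and 53.6% under H3K36me3. CISH, a feedback inhibitor of STAT5 signalling, had 8700 bp of H3K4me3, 10762 bp of H3K27ac, the highest of any covered gene, and 75.9% of its 5286 bp under H3K36me3. CD69 and CISH therefore resembled CDKN1B in H3K4me3, H3K9ac and H3K79me2 and differed from it in H3K36me3.

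Uncovered genes under H3K27me3 were of several kinds, with some regulators of development and very long genes among them. The 10 with the highest share of span under H3K27me3 also held CCT6B, DDX25, FBXO32 and MDH1B. Over all classes, H3K27me3 was at an end of 2 of 24 H3K4me3 genes of developmental transcription factor families, against 10.5% of all H3K4me3 genes. For the uncovered members of these families alone this was not counted. LHX1, a LIM homeobox gene (7828 bp), had 1162 bp of H3K4me3 near its ends, with 0% of its span under H3K4me3 and 100% under H3K27me3. NR4A3 had 1800 bp of H3K4me3, 450 bp of H3K9ac, no H3K27ac or H3K79me2 near its ends, and 71.97% of its 45007 bp under H3K27me3. MECOM, which encodes the zinc finger factor EVI1 (580206 bp), had 600 bp of H3K4me3 and no H3K9ac within 5 kb of its ends, 0.103% of its span under H3K9ac and 75.3% under H3K27me3. The widest H3K4me3 region at an end was 450 bp in LHX1 and 600 bp in NR4A3 and MECOM, below the median of all uncovered genes, 750 bp. Among the 10 longest uncovered genes, H3K27me3 covered 17.2% of DLG2, a synaptic scaffold gene of 2173362 bp, 30.4% of AUTS2, 59.6% of CTNND2 and 47.4% of SOX5, a SOX-family factor. All 10 had H3K27me3 in the span, from 15.3% in HDAC9 to 75.9% in SUGCT. So did 115 of all 134 uncovered genes over 200 kb (85.8%), against 27.2% of partly covered and 11.8% of covered genes of that length. In SUGCT and GALNTL6, which are among the 10, H3K4me3 covered 0% of the span. Where H3K27me3 was in the span at all, the median share it covered was 46.7% (39.5 to 50.3) in the 479 uncovered, 11.2% in the 363 partly covered and 20.4% (16.5 to 27.4) in the 302 covered genes.

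Uncovered genes with neither mark were the largest kind and included genes with H3K9ac near an end. SMYD2 (55973 bp) had 1200 bp of H3K4me3 and 1500 bp of H3K9ac within 5 kb of its ends and no H3K27ac. KDM8, a gene of the jumonji family (18243 bp), had 450 bp of H3K4me3 and 1500 bp of H3K9ac. FOSB, a partner of JUN in the AP-1 factor (7184 bp), had 750 bp and 2850 bp, and ELL2, an elongation factor gene (76754 bp), 1200 bp and 1350 bp. Outside their spans but within 5 kb of the ends, H3K27me3 covered 7754 bp at ELL2, 1842 bp at SMYD2 and 0 bp at KDM8 and FOSB.

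Within 1 kb of either end, H3K79me2 separated the classes most among the marks not used by the rule. It lay within 1 kb of an end of 440 of 1356 uncovered genes (32.4%, 30.01 to 34.99) and 3897 of 4580 covered genes (85.1%, 84.0 to 86.1), with partly covered genes in between at 58.6%, against 67.9% of all 9275. The difference was -52.6 percentage points (-55.3 to -49.9, Newcombe interval). H3K27me3 went the other way, at 404 uncovered (29.8%, 27.4 to 32.3) and 261 covered genes (5.70%, 5.06 to 6.41), against 10.5% of all. The difference was 24.1 points (21.6 to 26.7). These shares count either end. Where H3K4me3 lay at the start, H3K27me3 was there in 15.7% of uncovered and 3.13% of covered genes. It was at the far end in 20.2% and 2.998%. H3K27ac was rare, at 95 uncovered (7.01%) and 619 covered genes (13.5%), against 11% of all. Its difference was -6.51 points (-8.12 to -4.74), and -10.02 among genes of at least 20 kb. The list held only 3613 H3K27ac intervals, against 22661 for H3K9ac and 16403 for H3K4me3. A gene without an H3K27ac call may therefore carry a region that was not detected.

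H3K9ac and H3K4me2 were at most genes of every class. H3K9ac was at an end of 90.7% (89.05 to 92.1) of uncovered and 99.6% (99.4 to 99.8) of covered genes, against 97.6% of all, a difference of -8.92 points (-10.6 to -7.47). H3K4me2 was at 99.9% of all genes, uncovered genes included. H3K4me1, which flanks promoters and marks enhancers, was at 33.9% (31.5 to 36.5) of uncovered and 28.0% (26.8 to 29.3) of covered genes, against 30.2% of all. H3K4me3 itself, present in every gene by the rule, was narrower in uncovered genes: the median within 5 kb of the ends was 1050 bp (900 to 1050) against 1650 bp, and the median width of the widest region 750 bp (750 to 900) against 1350 bp. For H3K9ac the medians were 1500 bp (1350 to 1500) and 2100 bp (2100 to 2250).

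**Figure D3:**
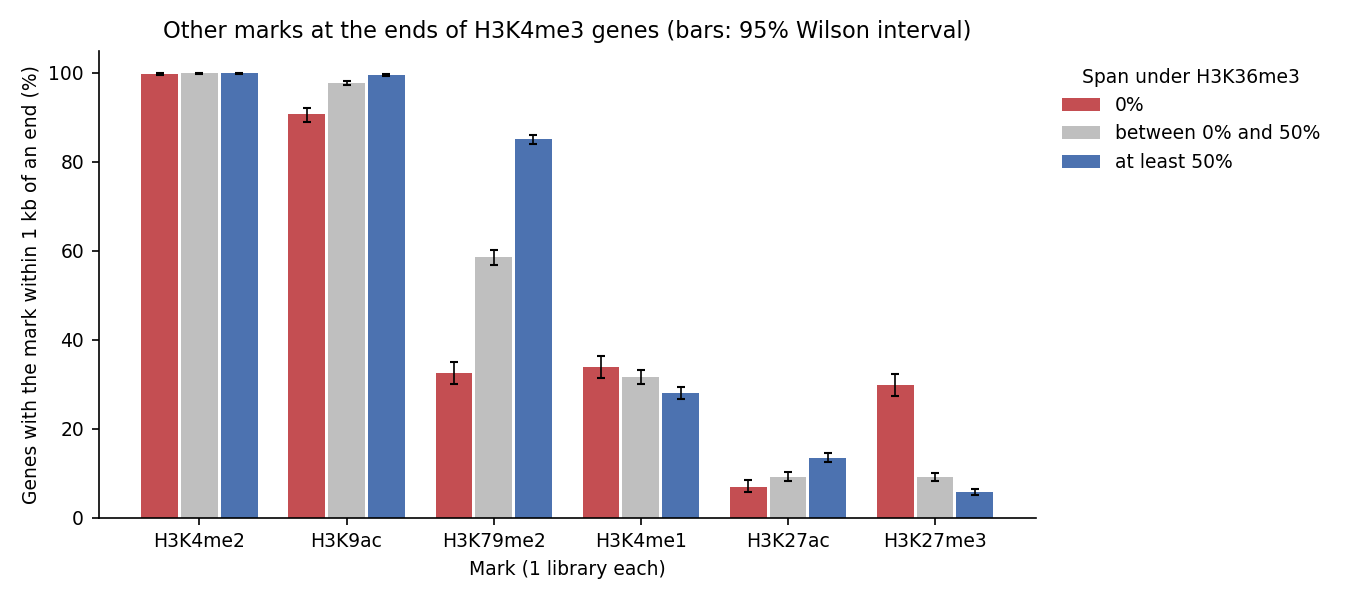
Share of genes with each of 6 marks within 1 kb of an end (y axis, percent) in uncovered, partly covered and covered genes; error bars are 95% Wilson intervals over genes and there was 1 library per mark. H3K79me2 rises from 32.4% to 85.1% and H3K27me3 falls from 29.8% to 5.70% from uncovered to covered genes.

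Within length classes the differences in H3K79me2 and H3K27me3 kept their sign. The H3K27me3 difference widened at each step, from 7.54 to 67.2 points, and the H3K79me2 difference went from -40.5 points at 5 to 10 kb to -70.4 at 100 to 200 kb and -67.1 over 200 kb. H3K79me2 was at 43.6% (38.1 to 49.3) of uncovered genes of 5 to 10 kb and 17.2% (11.7 to 24.4) of those over 200 kb, while covered genes stayed between 83.2% and 87.6% in all 6 classes. H3K27me3 was at 12.8% (9.50 to 17.1) of uncovered genes of 5 to 10 kb, 25.8% of those of 20 to 50 kb, 58.6% of those of 100 to 200 kb and 67.2% (58.8 to 74.5) of those over 200 kb. Covered genes had it at 5.30%, 6.55%, 4.23% and, over 200 kb, 0 of 51 (0 to 7.00%). Over 200 kb, an uncovered H3K4me3 gene was thus more often marked by H3K27me3 at an end than not. H3K27ac did not differ among genes of 5 to 10 kb beyond the counting interval (12.8% in uncovered and 11.3% in covered genes, difference 1.53 points, -2.88 to 6.43), and over 200 kb it was at 1.49% and 23.5% (difference -22.04, -35.3 to -11.8). The H3K9ac difference was -4.04 points (-7.03 to -2.01) at 5 to 10 kb, -18.75 (-26.4 to -12.8) at 100 to 200 kb and -17.2 (-24.4 to -8.29) over 200 kb. H3K4me1 changed sides, from 50.3% in uncovered against 38.7% in covered genes at 5 to 10 kb to 11.9% against 39.2% over 200 kb.

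**Figure D4:**
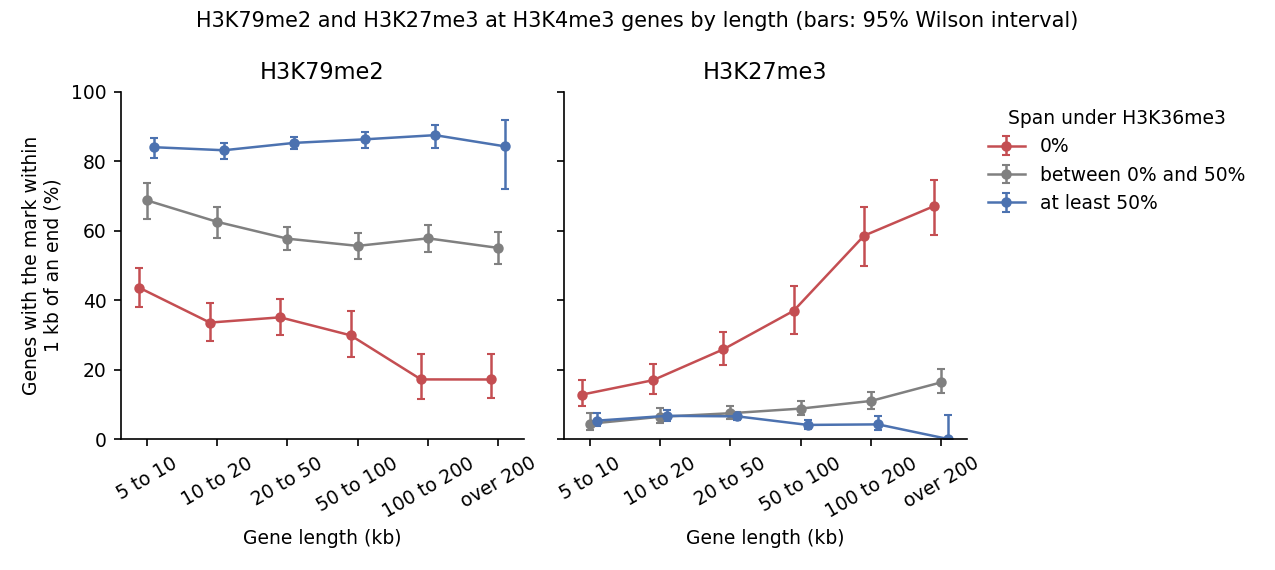
Share of genes with H3K79me2 (left) or H3K27me3 (right) within 1 kb of an end (y axis, percent) in 6 classes of gene length (x axis, kb), with 95% Wilson intervals. In uncovered genes H3K79me2 falls from 43.6% to 17.2% and H3K27me3 rises from 12.8% to 67.2% with length, while covered genes stay between 83.2% and 87.6% for H3K79me2.

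Uncovered genes shared their H3K4me3 region with a neighbour more often than covered genes. The region also touched an end of another protein-coding gene in 580 uncovered genes (42.8%, 40.2 to 45.4), 28.7% of partly covered and 30.2% (28.9 to 31.6) of covered genes. The neighbour was itself covered by at least 50% in 16.7% (14.8 to 18.7) of uncovered and 15.3% (14.2 to 16.3) of covered genes. CDKN1B is such a case: the annotated end of GPR19, a receptor gene that was uncovered too, lay 122 bp before its start. GPR19 had 5546 bp of H3K4me3 near its ends, 4.16% of its span under H3K79me2 and 16.9% under H3K27me3.

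H3K79me2 and H3K27me3 both differed with this split. Where the region was shared, H3K79me2 was at an end of 53.4% (49.4 to 57.5) of uncovered and 89.8% (88.1 to 91.3) of covered genes. Where it was not shared, the shares were 16.8% (14.3 to 19.5) and 83.0% (81.7 to 84.3). The gap in H3K79me2 was therefore wider where the H3K4me3 region touched an end of no other protein-coding gene. Genes of other biotypes did not count in this split. Among genes with no other gene of any kind within 5 kb, which left 123 uncovered and 568 covered genes, the shares were 15.4% (10.1 to 22.9) and 81.7% (78.3 to 84.7). H3K27me3 was at an end of 25.3% of uncovered and 2.38% of covered genes with a shared region, of 33.1% and 7.14% of those with an unshared region, and of 33.3% and 8.10% of genes without neighbours. Uncovered genes with a shared region were shorter, with a median of 20518.5 bp against 29696.5 bp, and had wider H3K4me3, 1050 bp against 600 bp. Covered genes showed the same order, with 25060 bp against 31499 bp and 1500 bp against 1200 bp.

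For 1054 uncovered and 3812 covered genes the strand was known, so the start could be told from the far end. Of the genes on chromosome 8, 0 had a strand here, so the values by start, the profiles along genes and the promoter sequences leave that chromosome out. H3K4me3 was at the start only in 940 uncovered (89.2%) and 3686 covered genes (96.7%). It was at the far end only in 75 uncovered (7.12%, 5.71 to 8.83), 33 partly covered (1.16%) and 9 covered genes (0.236%, 0.124 to 0.448), and of the 75 uncovered genes, 64 shared that region with another gene's end. In a small part of the uncovered class the H3K4me3 thus lay at a gene's far end. Where H3K4me3 lay at the start, in 979 uncovered and 3803 covered genes, H3K79me2 was at the start of 33.5% (30.6 to 36.5) and 85.2% (84.1 to 86.3). H3K27me3 was at the start in 15.7% (13.6 to 18.1) and 3.13% (2.62 to 3.73), so that both sets of intervals met at the same start, and at the far end in 20.2% and 2.998%.

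The share of uncovered genes ranged over the chromosomes from 9.32% on chromosome 4 to 20.6% on chromosome 17. Chromosome 8, present in 2 copies in KBM-7 where most chromosomes have 1, had 14.1% uncovered genes, within that range. Its share of covered genes was 69.8% (64.7 to 74.4), above the 39.6% to 58.6% of the other 22 chromosomes, and only 16.1% of its genes were partly covered. The part of chromosome 15 from 61 to 90 Mb, also in 2 copies, had 66.4% (58.4 to 73.6) covered genes against 52.0% (44.6 to 59.3) on the rest of the chromosome, and 19.2% uncovered genes. A 2-copy stretch gives more fragments than its surroundings, and the part this had in the calls was not tested. Without both stretches, the differences between uncovered and covered genes were -52.46 points for H3K79me2, 23.46 for H3K27me3 and -6.01 for H3K27ac, within the counting intervals of the values over all chromosomes given above.

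By function, the covered class held most genes of the cell's basic machinery. Lists are given by their members with H3K4me3, beside the 14.6% uncovered, 49.4% covered and median of 49.3% of span under H3K36me3 over all 9275. Of 44 cytosolic ribosomal protein genes, 35 were covered and 1 was uncovered, with a median of 82.7% of the span. The exception was RPL3L, a paralogue of RPL3 known from striated muscle, with 689 bp of H3K4me3 near its ends. All 51 mitochondrial ribosomal protein genes had some H3K36me3, with 44 covered, as did all 34 proteasome genes, with 32 covered, and all 31 aminoacyl-tRNA synthetase genes, with 25 covered. PSMC6, an ATPase subunit of the proteasome, had 96.3% of its span under H3K36me3, LARS1, the leucyl-tRNA synthetase gene, 98.3% and RPL14 94.1%. Of 61 splicing factor genes, 52 were covered and 1 was uncovered, HNRNPA0, a gene of 8713 bp with 48.9% of its span under H3K79me2. Of 64 respiratory chain genes, 52 were covered and 2 were uncovered, NDUFB7 and NDUFS7, with 45.1% and 14.1% under H3K79me2. Of 22 nuclear pore genes, 19 were covered and none was uncovered, with a median of 88.3%, and of 31 Mediator genes 22 and none.

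Genes of DNA replication and mitosis were mostly covered. Of 39 DNA replication genes 35 were covered, of 38 mitosis genes 36, and none of either list was uncovered, with medians of 84.0% and 87.6%. MCM2, a subunit of the replicative helicase, had 95.5%, AURKA, a mitotic kinase gene, 94.7% and TPX2, its activator, 95.7% of the span under H3K36me3. KIF15 had 96.8% of 106894 bp and POLQ 97.8% of 114558 bp, while POLA1 had 78.2% of 303069 bp. The members of the 2 lists that fell short were partly covered: PCNA, the sliding clamp gene, at 30.4%, RRM2, a ribonucleotide reductase subunit gene, at 35.1%, RFC3 at 31.7%, PRIM2 at 8.78%, ANAPC1 at 25.01% and PTTG1 at 39.8%. PCNA had 39.8% under H3K79me2 and a total of 5550 bp of H3K4me3 near the ends, above the covered median of 1650 bp. Its widest single H3K4me3 region was 1200 bp, below the covered median of 1350 bp. Of 36 DNA repair genes, 28 were covered and 1 was uncovered, LIG4, a ligase of end joining, with 900 bp of H3K4me3 and 5.50% under H3K79me2. PRKDC, on chromosome 8, had 99.7% of 187026 bp under H3K36me3.

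**Figure D5:**
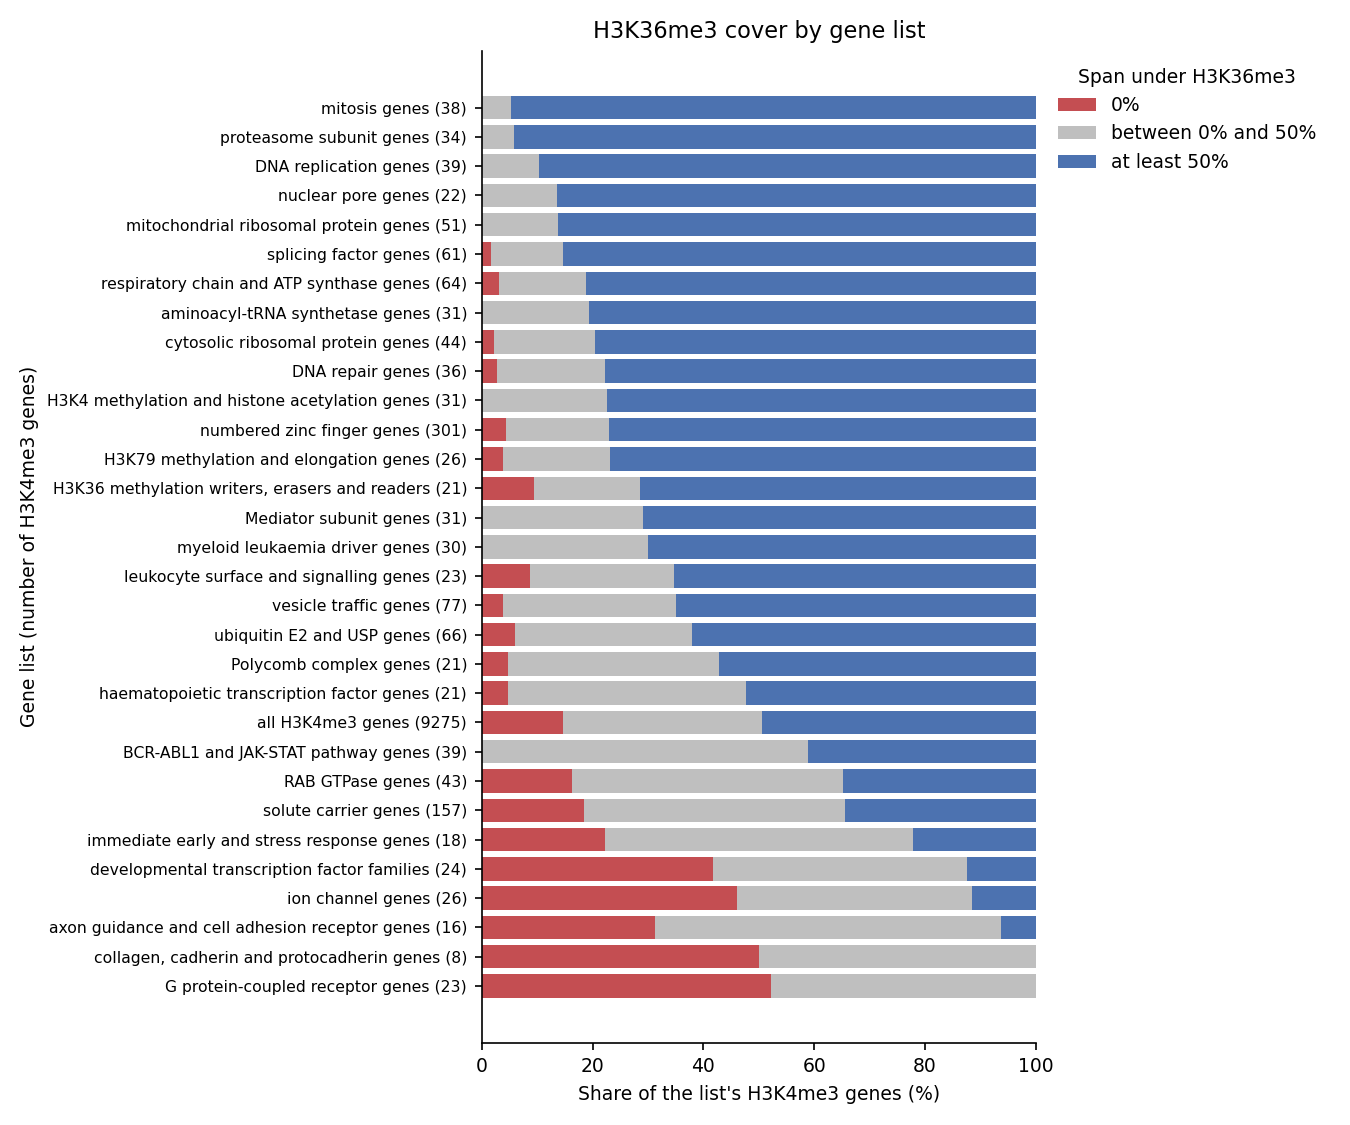
Share of the H3K4me3 genes of each of 30 lists, and of all 9275, that were uncovered, partly covered or covered (x axis, percent; the number of H3K4me3 genes stands in brackets). Lists run from 36 of 38 mitosis genes covered at the top to 0 of 23 G protein-coupled receptor genes covered at the bottom.

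Genes of chromatin and transcription were mostly covered as well. Of 21 genes of H3K36 methylation and its readers, 15 were covered, among them PSIP1, a reader of the mark, at 94.7%, and 2 were uncovered, SMYD2 and KDM8. DNMT3A, a DNA methyltransferase that binds H3K36 methylation, was partly covered at 10.02%. Of 26 genes of H3K79 methylation and elongation 20 were covered and ELL2 was uncovered, and of 31 genes of H3K4 methylation and acetylation 24 were covered and none was uncovered. Of 21 Polycomb genes, 12 were covered, with SUZ12 at 89.0%.

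Lists tied to the blood lineage and to the leukaemia had a smaller share of covered genes than the replication and mitosis lists. Of 21 haematopoietic transcription factor genes, 11 were covered, with MYB at 79.7% and CBFB at 77.9%, and MECOM was uncovered. Of 23 leukocyte genes 15 were covered, with ITGAL, an integrin gene, at 88.2%, and 2 were uncovered, the short genes CD63 and CORO1A, with 25.4% and 41.1% under H3K79me2. Of 39 genes of BCR-ABL1 and JAK-STAT signalling none was uncovered, but only 16 were covered and the median was 38.4%. Members of this list had a median length of 86066 bp. STAT5A had 85.7% and TYK2, a JAK kinase gene, 93.1% of the span under H3K36me3. Of 30 myeloid leukaemia driver genes, 21 were covered and none was uncovered.

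The uncovered class was frequent in several receptor, channel, developmental and adhesion gene families, in which only a minority of genes had H3K4me3. Of 110 G protein-coupled receptor genes of at least 5 kb, 23 had H3K4me3, and of these 12 were uncovered and none was covered. Of 163 ion channel genes, 26 had H3K4me3, with 12 uncovered and 3 covered. The 3 were KCNN4, a calcium-activated potassium channel gene, at 62.3%, KCNK6 at 73.6% and TRPM7 at 90.5%. Of 77 genes of developmental transcription factor families, 24 had H3K4me3, with 10 uncovered and 3 covered: FOXM1, a cell cycle factor, at 88.8%, FOXJ3 at 53.7% and FOXJ2 at 50.4%. Of 118 collagen and cadherin genes 8 had H3K4me3, with 4 uncovered and none covered, and of 44 axon guidance genes 16, with 5 uncovered and 1 covered, EPHB4 at 78.1%. H3K4me3 in these families therefore came mostly without H3K36me3 over the larger part of the gene. H3K27me3, at an end of 10.5% of all H3K4me3 genes, was at 9 of the 26 ion channel genes, 3 of the 16 axon guidance genes, 2 of the 8 collagen and cadherin genes, 2 of the 23 receptor genes and 2 of the 24 transcription factor genes. The uncovered transcription factor genes included HOXA10 and HOXA13 with H3K79me2, and FOXO1 with 16.2% under H3K27me3.

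Other large families lay in between. Of 157 solute carrier genes, 29 were uncovered (18.5%), 74 partly covered and 54 covered, with a median of 31.0%. SLC11A1, a metal transporter of macrophages, was uncovered with 3450 bp of H3K4me3 and 1950 bp of H3K27ac, while SLC20A1, a phosphate transporter gene, had 94.1% under H3K36me3. Of 43 RAB GTPase genes 7 were uncovered and 15 covered, of 66 ubiquitin E2 and USP genes 4 and 41, and of 77 vesicle traffic genes 3 and 50. Of 18 immediate early and stress genes 4 were uncovered, FOSB, NR4A2, NR4A3 and ZFP36L1, and 4 were covered, among them HSPA5, an endoplasmic reticulum chaperone gene, at 87.0% and MCL1, a survival factor gene, at 68.1%. ZFP36L1, a short gene (8589 bp) which promotes mRNA decay, had 3000 bp of H3K4me3, 1200 bp of H3K27ac and 40.2% under H3K79me2. Its widest single H3K4me3 region was 1050 bp, between the medians of uncovered (750 bp) and covered genes (1350 bp). NR4A3 lay under H3K27me3.

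H3K36me3 and H3K27me3 often met in numbered zinc finger genes, the only list for which their overlap in the span was counted. Of 301 with H3K4me3, 232 were covered and 13 uncovered, with a median of 75.5%, and H3K27me3 was at an end of 104. Zinc finger genes made up 232 (5.07%, 4.47 to 5.74) of the 4580 covered genes, but 145 (48.0%, 42.4 to 53.6) of the 302 covered genes with H3K27me3 in the span and 61 (84.7%, 74.7 to 91.2) of the 72 with H3K27me3 on at least 50% of it. Of these 61, 45 lay on chromosome 19. The 145 genes had medians of 86.9% of the span under H3K36me3 and 43.5% under H3K27me3. ZNF283 (chromosome 19, 24697 bp) had 97.2% under H3K36me3, 83.7% under H3K27me3 and 0% under H3K79me2, with 600 bp of H3K4me3. ZNF708 had 97.6%, 30.1% and 25.1%. Shares of that size over 1 gene mean that both sets of intervals covered the same stretches in part, and whether they lay on the same chromatin fibres was not measured.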

How the data were processed

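The authors deposited 1 list of called intervals (chromosome, start, end and mark; other than positions it holds no count, score or signal). Per the submitters' processing notes, cutadapt, Bowtie2, MACS and the build GRCh38 were used; their versions, thresholds and the input for each call are not stated there. By the labels, 1 input went with H3K4me3 and H3K79me2, another with H3K36me3 and the last with H3K27me3.

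From these positions, starts counted from 0 and from 1 were aligned by their offset from a 50 bp grid, and overlapping or adjacent intervals of a mark were joined. For H3K27me3 this turned 1239877 intervals into 117702 regions, and for H3K36me3 45695 into 37321. Intervals whose label belongs to none of the samples (1 label) were left out. A mark was at an end when it overlapped, by at least 1 bp, the window reaching 1 kb to each side of that end. Spans came from RefSeq (GRCh38.p14), and starts from its promoter table. No test was made. Shares have Wilson intervals, differences Newcombe intervals and medians order-statistic intervals, all 95%. The interval functions were tested on simulated data (Python 3.11.15, numpy 2.4.6, pandas 2.3.3, scipy 1.17.1).

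The gene classes and the 30 lists were chosen with earlier results of these data known. Genes were named by rule: for each list the uncovered genes with the most H3K4me3, the covered genes with the most H3K36me3 and all members of a class of 4 or fewer; and over all genes the 10 extremes in H3K4me3, length, H3K36me3, H3K79me2 and H3K27me3. The text names a selection. The 6 promoters, the splits by shared regions and, for kinds, at 20 kb, and the counts of zinc finger genes under both marks were chosen after values were seen.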

Additional observations from a re-analysis of the deposited data

How the results depend on the processing

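Each of 6 results was recomputed under 13 alternatives, changing 1 choice at a time. The number of uncovered genes (1356) was 2291 with wider H3K36me3 regions, 771 for genes of at least 20 kb and 123 for genes without neighbours within 5 kb. The number of covered genes (4580) was 3013 at 20 kb, 2444 with the threshold at 75% and 568 without neighbours. Length minima and isolation leave fewer genes by construction. The log2 ratio of median lengths (-0.22) reversed to 0.12 at a minimum of 10 kb (interval -0.07 to 0.33), 0.39 at 20 kb and 0.32 with under 5% counted as uncovered. The H3K79me2 difference (-52.6 points) moved to -45.7 when H3K4me3, but not the other marks, had to fill 500 bp of a window. It moved to -48.3 with wider H3K36me3 regions, -55.9 and -58.1 at 10 and 20 kb, -57.4 at 75% and -66.2 in isolated genes. The H3K27me3 difference (24.1) moved to 19.96, 16.5, 28.8 and 35.7 under the first 4 of these. The H3K27ac difference (-6.51) moved to -8.45 and -10.02 at 10 and 20 kb and -8.83 in isolated genes. All differences in marks kept their sign under the 13 alternatives; the causes of the moves were not tested. No paired analysis was possible because each mark had 1 library. Depth is unknown, so a region that is missing may not have been detectable.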
